A study of Homo sapiens with 2 samples.

Results

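Genes of the desmosome and of epithelial cadherin adhesion were examined for RUNX1 binding in cells derived from MCF10A. MCF10A is a human breast epithelial cell line that, unmodified, does not form tumours. The genes are CDH1, CDH3, DSC2, DSC3, DSG2, DSG3, DSP, JUP, PKP1 and PKP3, 10 of 20037 protein-coding genes in the RefSeq annotation of GRCh38.p14. Every peak with its summit inside a gene, or no more than 50 kb from its nearer end, was counted for that gene, and 7 of the 13591 peaks in the list met this for at least 1 of the 10 genes. The genes are grouped by what they encode, and the rule uses no measured value, but the group was proposed with earlier results of these data known.

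The data are 1 library of RUNX1 chromatin immunoprecipitation followed by sequencing (ChIPseq) and 1 library of input DNA taken without antibody. Both came from MCF10A cells whose own RUNX1 had been deleted and which carried lentivirally delivered RUNX1 under doxycycline control, and both had received 1 µg/ml doxycycline for 24 h. The binding measured is therefore that of induced RUNX1, not of RUNX1 at its natural level, and no library of uninduced cells was analysed here. The immunoprecipitate held 80338845 tags after filtering and the input 87410774. With 1 library of each kind, no value has a replicate check and no test between conditions was made. A peak list carries no expression values, so the mammary epithelial identity of the cells was not checked against markers.

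Epithelial cells are held together by adherens junctions and desmosomes. In adherens junctions, classical cadherins such as E-cadherin (CDH1) and P-cadherin (CDH3, found mainly in basal and myoepithelial cells of the breast) bind their like on the neighbouring cell and connect to actin. In desmosomes, the desmocollins (DSC) and desmogleins (DSG) are the bridging cadherins, plakoglobin (JUP) and the plakophilins (PKP) bind their tails, and desmoplakin (DSP) ties the plaque to keratin filaments. RUNX1 recognises short DNA sequences as a heterodimer with CBFB and activates or represses transcription of nearby genes.

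Of the 10 genes, 6 had a RUNX1 peak, compared with 52.1% of all protein-coding genes by the same rule (10434 of 20037). Among the 10009 protein-coding genes of 12.3 to 98.2 kb, the length range of these 10, the share was also 52.1%. The 6 genes with a peak were CDH1, CDH3, JUP, PKP1, PKP3 and DSP, and the 4 without were DSC2, DSC3, DSG2 and DSG3. The count of 6 in 10 is near the share of genes in general and sets these genes apart in neither direction. The members are not independent positions, since they lie on 6 chromosomes, with CDH1 beside CDH3 on chromosome 16 and the 4 desmosomal cadherins together on chromosome 18. Of these 6 chromosomes, 5 carried a member with a peak.

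**Figure D1:**
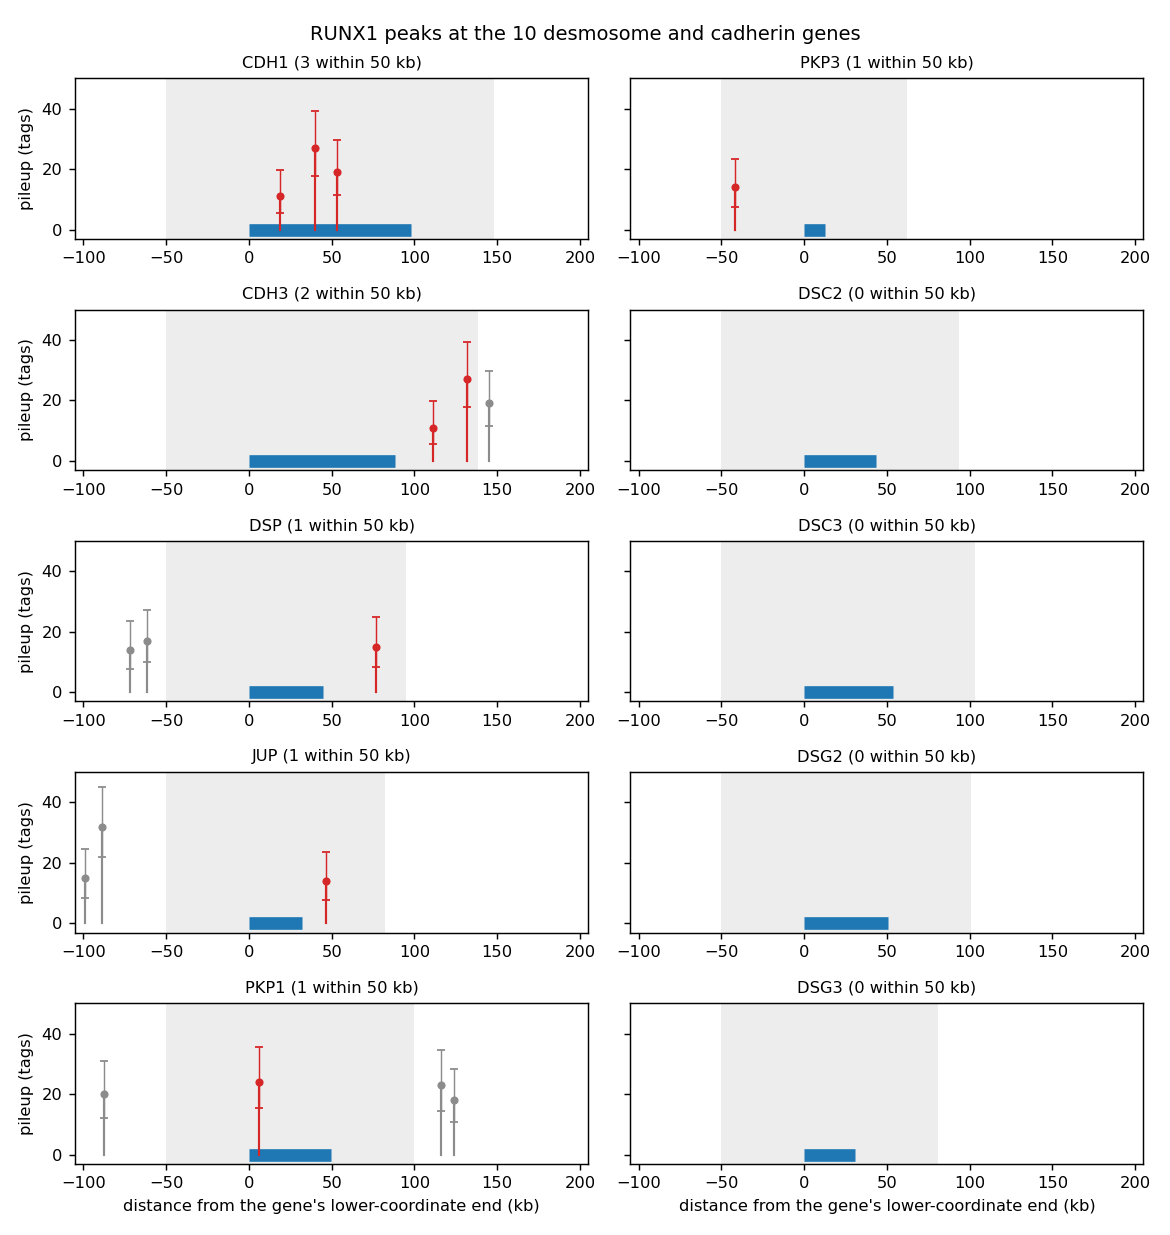
Each panel shows 1 gene (blue bar) with its 50 kb on either side (grey field), plotted as distance from the lower-coordinate end of the gene in kb; the height of each point is the pileup in tags with its exact 95% Poisson interval. Red points are peaks assigned to the gene, with 3 at CDH1, and grey points are peaks between 50 and 100 kb away, while the panels of DSC2, DSC3, DSG2 and DSG3 hold 0 peaks.

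CDH1 had the most peaks of the 10 genes. Its interval, 68737292 to 68835537 on chromosome 16 (GRCh38), held 3 summits, and no further peak lay within 50 kb. At least 3 summits inside the gene were found for 3.53% of protein-coding genes, and for 1.77% of those in the length range of the members. CDH1, at 98.2 kb, is the longest member and sets the upper end of that range, so the genes behind this share are no longer than CDH1. It was also picked here as the highest of the 10, so neither share measures how unusual it is. The tallest of the 3 peaks spanned 68776875 to 68777162, was 288 bp wide and had its summit 39.7 kb from the lower-coordinate end of the gene. Its pileup, which counts the extended ChIP tags that cover the summit, was 27 (exact 95% Poisson interval 17.8 to 39.3), with a 7.13-fold enrichment over the local background and a −log10 q of 13.32. A higher pileup was seen in 12.8% of all peaks and a greater width in 10.2%.

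The other two peaks in CDH1 were lower. The peak at 68790350 to 68790483, 13.4 kb from the tallest, had 19 tags (11.4 to 29.7) and a 6.25-fold enrichment. The peak at 68756215 to 68756315, on the opposite side at 20.8 kb, had 11 tags (5.49 to 19.7) and a 3.75-fold enrichment, and 98.2% of all peaks had a higher pileup. The lowest pileup anywhere in the list was 10 tags, so this peak stood close to the limit of what was called. The counts of 27 and 11 tags each lie outside the counting interval of the other, whereas the count of 19 lies within both of those intervals. The annotation used here gives gene intervals without exons, so exonic and intronic positions were not told apart.

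CDH3 lies directly below CDH1, with 3520 bp between the genes, and had no summit inside its interval (68645310 to 68733771). The 2 peaks assigned to it were the lowest and the tallest of the CDH1 peaks, 22.5 and 43.3 kb away. The last CDH1 peak fell 56.6 kb from CDH3, just outside the window. All peaks counted for the cadherin genes of chromosome 16 thus lay in CDH1, 3 for CDH1 and 2 of the same 3 for CDH3.

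Among the plaque genes, PKP1 was the only other gene of the 10 with a summit inside it. PKP1 encodes plakophilin 1, an armadillo-repeat protein that strengthens desmosomes and is abundant in stratified epithelia. Its peak, at 201289730 to 201289887 on chromosome 1, lay 6.28 kb downstream of the transcription start that the RefSeq promoter table gives. It had 24 tags (15.4 to 35.7), a 5.35-fold enrichment and a −log10 q of 8.61. The local background here was 3.68 tags, 1.67 times the genome-wide background of 2.20 tags, whereas at the 3 CDH1 peaks it was 1.00 to 1.33 times. The part of the raised background in the peak's height was not tested. At least 1 summit inside the gene was seen for 18.7% of protein-coding genes, and for 17.8% of those in the length range of the members, compared with these 2 genes of 10.

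JUP, DSP and PKP3 had 1 weak peak each, and none of these lay in the gene. The JUP peak (41801445 to 41801529 on chromosome 17) stood 14.8 kb upstream of the start of JUP, the nearest start in the RefSeq promoter table. It lay only 469 bp from the interval of P3H4, a gene of collagen modification. It had 14 tags (7.65 to 23.5) and a 4.68-fold enrichment, and at 85 bp it was narrower than 88.8% of all peaks. The DSP peak (7618334 to 7618478 on chromosome 6) lay 31.7 kb beyond the far end of DSP, 76.7 kb downstream of its start, and 6439 bp from the spliceosome gene SNRNP48. It had 15 tags (8.40 to 24.7) and a fold enrichment that lay just under 5 and rounds to 5.00. The PKP3 peak (350844 to 351000 on chromosome 11) lay 41.7 kb below PKP3 and 18.6 kb from B4GALNT4, a glycosyltransferase gene, with 14 tags (7.65 to 23.5) and a 3.99-fold enrichment. In all 3 cases another protein-coding gene was nearer to the summit, so that 4 of the 7 peaks, 3 in CDH1 and 1 in PKP1, had a member as the nearest protein-coding gene.

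The 7 peaks were mostly of modest height, with a median pileup at the lower quartile of the list. Their pileups ran from 11 to 27 tags with a median of 15, compared with a median of 18 tags (quartiles 15 and 23) over the whole list. A pileup above that median was reached by 3 of the 7, namely 2 in CDH1 and the 1 in PKP1, and the same 3 were the ones with a fold enrichment of at least 5, against 50.6% of all peaks. Their median width was 145 bp and that of the list 153 bp. Taking the highest peak of each gene, the median was 19.5 tags over the 6 genes with a peak and 20 tags over all protein-coding genes with a peak.

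**Figure D2:**
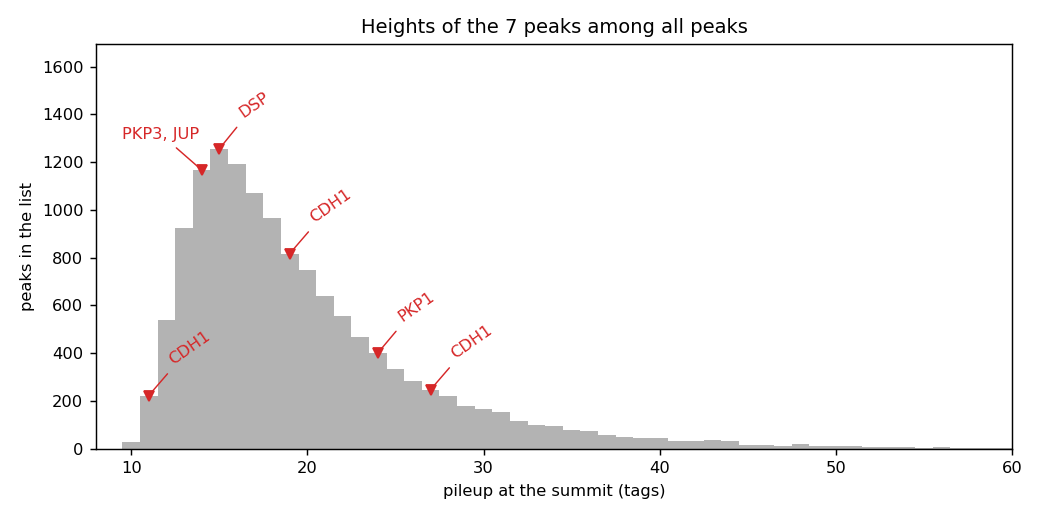
The bars count all peaks of the list by pileup at the summit in tags, and the red marks place the 7 peaks of the desmosome and cadherin genes on it (CDH1 peaks at 11, 19 and 27 tags, PKP1 at 24, DSP at 15, JUP and PKP3 at 14). The axis ends at 60 tags, which leaves out 85 taller peaks.

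The choice of 50 kb matters for these genes because 8 further pairs of gene and peak lay between 50 and 100 kb. Nearest to the limit on the inner side were the tallest CDH1 peak, 43.3 kb from CDH3, and the PKP3 peak at 41.7 kb. Nearest on the outer side were the CDH1 peak 56.6 kb from CDH3 and a peak of 17 tags 61.4 kb below DSP. DSP was the nearest protein-coding gene to this peak of 17 tags, unlike the assigned DSP peak. The tallest of the outer peaks had 32 tags (21.9 to 45.2) and a 10.31-fold enrichment and lay 88.7 kb from JUP, where EIF1, a translation initiation factor gene, was the nearest protein-coding gene at 22.9 kb.

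**Figure D3:**
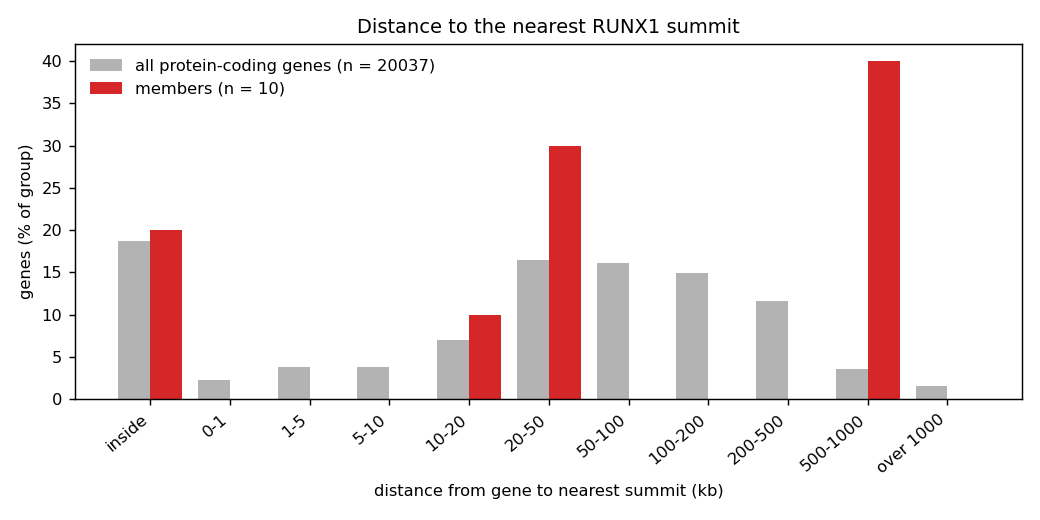
Bars give the share of genes, in percent of each group, by the distance from the gene to the nearest RUNX1 summit in kb, for the 10 genes (red) and all 20037 protein-coding genes (grey). The 10 genes fall into 6 with a summit inside or within 50 kb and 4 with the nearest summit 500 to 1000 kb away.

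The desmosomal cadherins on chromosome 18 showed the opposite picture to CDH1. DSC2 and DSC3, whose products are desmocollins, and DSG2 and DSG3, whose products are desmogleins, had 0 peaks within 50 kb, whereas 53.3% of the 270 protein-coding genes of this chromosome had one. The nearest summit was 945 kb from DSC3, 983 kb from DSC2, 607 kb from DSG3 and 536 kb from DSG2. A still more distant nearest summit was found for 1.80%, 1.68%, 3.96% and 4.76% of all protein-coding genes, in the same order. These 4 values describe a single region, since the genes share the same flanking peaks.

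The whole run of desmocollin and desmoglein genes, DSC3, DSC2, DSC1, DSG1, DSG4, DSG3 and DSG2 in chromosomal order, covers 560 kb (30989365 to 31549008) and held 0 summits. On the lower side the next summit was at 30044664, with 16 tags and a 5.31-fold enrichment. On the upper side it was at 32085337, inside the ubiquitin ligase gene RNF125, with 32 tags and an 8.78-fold enrichment. The gap between these summits was 2041 kb, compared with a median gap of 130 kb on chromosome 18 and 77.6 kb over the genome. Gaps at least as long were 6 of the 252 gaps on chromosome 18 and 136 of the 13567 gaps in the genome. They took up 24.7% of the distance between the outermost summits on chromosome 18 and 17.7% over the genome. The gap held 11 protein-coding genes, the 7 cadherins with TTR, B4GALT6, SLC25A52 and TRAPPC8, and 33 of the 136 long gaps held as many or more. Gaps of this length were thus few by number, though long gaps by their nature take up a larger share of the distance. Since the list holds only positions past its q-value limit and gives no coverage elsewhere, weaker binding in this region, or reads that could not be placed there, cannot be told apart from a lack of binding.

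**Figure D4:**
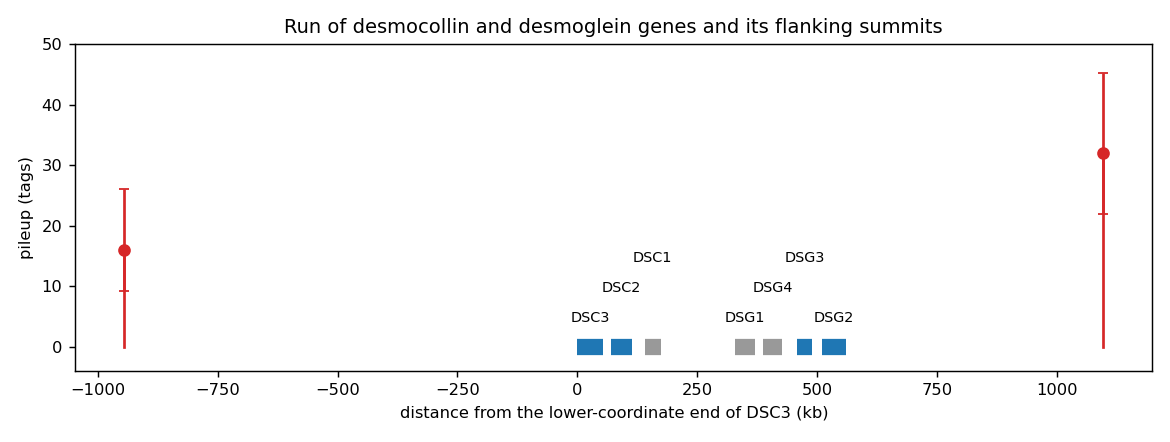
The 7 desmocollin and desmoglein genes of chromosome 18 are drawn as blocks (blue for DSC2, DSC3, DSG2 and DSG3, grey for the others) by distance in kb from the lower-coordinate end of DSC3. The red points are the nearest summits on either side, at 16 and 32 tags with exact 95% Poisson intervals, 2041 kb apart.

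No summit lay at a start site of these genes. The RefSeq promoter table listed 9 starts for 7 of them (PKP1, DSP, JUP, DSC3, DSC2, DSG3 and DSG2), while CDH1, CDH3 and PKP3 were not matched. The nearest summit was 6.28 kb from the PKP1 start, 14.8 and 15.5 kb from the JUP starts, 61.4 kb from the DSP start and 587 to 998 kb from those of the desmosomal cadherins. Over all 34942 distinct starts in that table, 3.85% had a summit within 1 kb. The 60 bases just before the start of PKP1, which has the nearest peak, and of the 3 genes DSP, DSG3 and DSC3, which have none within 50 kb of their starts, are printed here 5′ to 3′ on the strand of the gene, from RefSeq GRCh38.p14, with each CG dinucleotide in capitals.
PKP1 (chr1:201283446-201283505, plus strand): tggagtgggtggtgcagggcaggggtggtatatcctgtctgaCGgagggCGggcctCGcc
DSP (chr6:7541611-7541670, plus strand): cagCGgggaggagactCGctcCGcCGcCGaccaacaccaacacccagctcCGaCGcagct
DSG3 (chr18:31447681-31447740, plus strand): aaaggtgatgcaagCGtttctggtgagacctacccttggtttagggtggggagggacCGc
DSC3 (chr18:31042743-31042802, minus strand): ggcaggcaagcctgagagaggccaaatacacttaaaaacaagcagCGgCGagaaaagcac
The DSP stretch holds 7 CG dinucleotides, that of PKP1 3, and those of DSG3 and DSC3 2 each. In the full window of 300 bases (250 before the start and 50 after), DSP had 37 and DSG2 36, DSC3 25, PKP1 19 and DSG3 6, compared with a median of 14 over all 35116 windows. JUP had 23 and 19 at its starts and DSC2 15 and 22. By the 50 kb rule for the gene interval, PKP1, DSP and JUP had a peak, and DSC2, DSC3, DSG2 and DSG3 had none. The starts of both groups overlapped in CG content.

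The letters TGTGGT and TGCGGT, forms of the sequence that RUNX proteins bind, were searched on both strands of these windows. Either was present in 19.6% of all windows in the table, TGTGGT in 13.1% and TGCGGT in 7.29%. Of the 9 windows of these genes, 1 held a match, the TGCGGT of DSG3 on the opposite strand, which begins 5 bases before the start site. It is shown with 12 bases on either side and the matching letters in capitals.
DSG3 (chr18:31447724-31447753, plus strand): gggtggggagggACCGCAtaacagaccatc
The nearest RUNX1 summit to this start was 638 kb away, so these letters stood at a start where no peak was listed. The sequence under the 7 peaks was not analysed here.

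Related junction genes were then counted by the same rule in 4 lists. The lists together held 41 genes, of which 25 (61.0%) had a peak, against the 52.1% of all protein-coding genes. Of 11 other genes of the desmosome and the cornified cell junction, 6 had a peak and 5 (DSC1, DSG1, DSG4, CDSN and PNN) had none, 3 of them in the run on chromosome 18. KAZN, which encodes the desmosome-associated protein kazrin, had 13 peaks over its 1225 kb, the tallest with 29 tags (19.4 to 41.6) and a 9.37-fold enrichment. PKP4, a plakophilin-related armadillo gene, had 2 peaks inside it, the taller with 18 tags (10.7 to 28.4). The tallest of the 2 at EVPL, the envoplakin gene, had 17 tags (9.90 to 27.2) but lay 27.0 kb away inside SRP68.

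Partners of the cadherins in adherens junctions had the highest count of the 4 lists, 9 of 11 genes, all but CTNNA1 and NECTIN2. This was 81.8%, compared with 52.1% of all protein-coding genes, and the list was picked here as the highest of the 4. The 11 genes were long, with a median of 108 kb against 24.1 kb for all protein-coding genes. The part of length in the count was not tested. The tallest peak of all 4 lists was assigned to VCL, the gene of the actin-linking protein vinculin, with 53 tags (39.7 to 69.3) and a 14.37-fold enrichment, a height exceeded by 0.868% of all peaks. It lay 44.2 kb from VCL, and the nearest protein-coding gene was PLAU, which encodes urokinase, at 36.4 kb. A peak of 37 tags (26.1 to 51.0) lay inside NECTIN4, the gene of a nectin adhesion receptor, 1 of 33 tags (22.7 to 46.3) inside NECTIN1, and 1 of the same height inside CTNNA2, the neural alpha-catenin gene of 1463 kb.

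Of 7 other classical cadherins and their relatives, 3 had a peak, and CDH2, CDH5, CDH6 and CDH11 had none. The 3 were CDH4 with 22 tags (13.8 to 33.3), CDH13 with 18 tags (10.7 to 28.4) and CDH15 with 17 tags (9.90 to 27.2), each inside the gene. CDH4 and CDH13 had 1 peak each in 688 and 1174 kb, whereas CDH15 had 2 in 23.7 kb and CDH1 had 3 in 98.2 kb. Per 100 kb of window, CDH15 had 1.62 peaks and CDH1 1.51. With peaks and windows summed over genes, the rate was 0.598 for the 10 genes and 0.649 for all protein-coding genes. Peaks shared by CDH1 and CDH3 counted for both. The median of the rates of single genes was 0.679 for the 10 genes and 0.342 for all protein-coding genes. Only 52.1% of all protein-coding genes had a peak and the others had a rate of 0. Their median therefore lies just above the genes without a peak, and a small difference in that share can move it. The summed rate and the median thus differed in direction, and the medians alone do not set the 10 genes apart.

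Of 12 tight junction genes, 7 had a peak and CLDN3, CLDN8, OCLN, MARVELD2 and F11R had none. The scaffold gene TJP1 had 4, the tallest with 26 tags (17.0 to 38.1) at 6.70 kb from the gene. For 3 claudin genes the tallest peak was outside the gene and nearer to another gene. It had 29 tags (19.4 to 41.6) for CLDN7, inside YBX2, and 23 tags (14.6 to 34.5) for both CLDN1, inside CLDN16, and CLDN4, at 3753 bp from TMEM270.

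**Figure D5:**
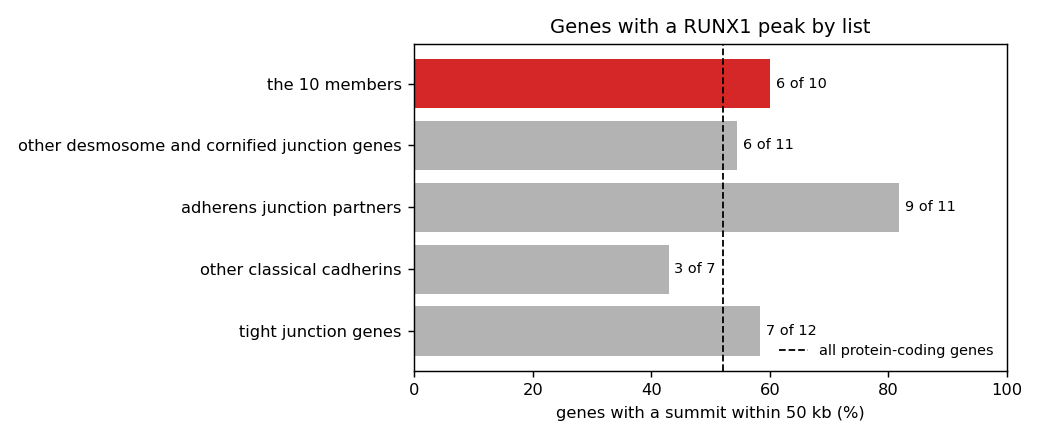
Bars give the percentage of genes with a RUNX1 summit within 50 kb for the 10 desmosome and cadherin genes (red) and 4 related lists (grey), with the counts beside them. The dashed line is the 52.1% of all protein-coding genes, which the bars straddle, from 3 of 7 to 9 of 11 genes.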

How the data were processed

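RUNX1 ChIPseq was represented by 1 immunoprecipitated and 1 input library, assigned by the antibody in their labels. The authors deposited 1 peak list, called with MACS 2.1.2 (q-value limit 0.05). According to its header, tags of 54 bp were extended to 74 bp, duplicate tags were reduced to 1 for each position and strand, and the input, as the larger library, was scaled down. Bowtie2 and hg38 are named in the submitters' processing notes. The deposited pileup is a signal, the count of extended tags at the summit. The fold enrichment as deposited divides pileup plus 1 by local background plus 1, and the deposited p-values and q-values are −log10 values. Of these, heights, folds and q were used as the authors' values.

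Summits were assigned to RefSeq gene intervals of GRCh38.p14 on chromosomes 1 to 22, X and Y (Python 3.11.15, pandas 2.3.3), and all 10 genes and all 41 related genes were matched by symbol. The local background was recovered from pileup and fold enrichment, and the genome-wide background from tags kept, extension and an effective genome size of 2.70 Gb. Intervals of pileups are exact 95% Poisson intervals (scipy 1.17.1) and cover counting error only. The assignment was tested on simulated peaks. Starts, strands and promoter sequences came from the RefSeq promoter table, which does not hold every gene. The members and lists were chosen with earlier results of these data known. All 10 genes are named with all their peaks. Of each related list, the genes with a peak of fold enrichment at least 5 are named, at most the 4 with the highest pileup, with their tallest such peak. Genes listed without a peak, and those nearest to a summit, are also named. Other settings were gene intervals alone, 5 and 100 kb on either side, a stricter q-value (0.01), fold enrichment (5 or more) or pileup (20 tags or more), overlap of any base, merging of peaks within 1 kb and the nearest gene of any type.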

Additional observations from a re-analysis of the deposited data

How the results depend on the processing

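Of 43 alternatives over 7 results, 26 left the count within 1.5 times, or the median height within its counting interval. That interval treats the median as a single count and does not measure its spread over genes. The median height ran from 19.5 to 27.0 tags and stayed within the interval under every setting, so those cases say little about stability. The genes with a peak, 6 of 10, fell to 2 with gene intervals alone or 5 kb on either side and to 3 when either 5-fold enrichment or 20 tags was required; the share of all protein-coding genes fell alike, from 52.1% to 18.7%, 24.8%, 35.1% and 28.1%, or from 10434 genes to 3755, 4962 and, at 20 tags or more, 5630. In the same order of settings, the 7 distinct peaks became 4, 4, 3 and 2 and the 0.900 peaks per gene became 0.400, 0.400, 0.400 and 0.300. With 100 kb there were 14 peaks, or 1.70 per gene, at the same count of 6 genes, while the share of all protein-coding genes rose to 68.2%. Each of these settings keeps fewer or more positions by construction. DSC2, DSC3, DSG2 and DSG3 had 0 peaks under every setting tried. This was fixed in advance, because their nearest summits were 536 to 983 kb away and the widest window was 100 kb. No paired analysis was possible because the series has a single ChIP and a single input library. Depth limits what a count of 0 can show, since no pileup under 10 tags was listed.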
